A study of Mus musculus with 30 samples.

Results

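Cdx2, Elf5, Gata2, Gata3, Hand1, Tfap2a, Tfap2c and Ascl2 are transcription factors that specify or pattern trophoblast, the lineage that forms the fetal part of the placenta. They were taken by gene symbol, and all 8 were found among the 22477 genes of the table. The RNA was polyadenylated RNA of mouse secondary iPSCs, which are induced pluripotent cells with GFP in place of one Nanog allele, a constitutive nuclear RFP and transgenes for Oct4, Sox2, Klf4 and cMyc (OSKM) that dox switches on. The 30 samples formed 15 conditions with 2 samples each. In the time course, 7 conditions (14 samples) followed cells moved from 2i/LIF, which keeps cells naive pluripotent, into N2B27 medium without 2i and LIF for 0, 24, 36, 48, 60, 72 or 96 h. In the other 8 conditions (16 samples), cells differentiated for 0, 24, 48 or 96 h were returned as single cells to serum/LIF and kept there for 48 h, either without dox (–dox) or with dox to induce OSKM (+dox). Every condition used the same iPSCs, so –dox and +dox cells carried the same transgenes, and the line was kept on CF1 mouse embryonic fibroblast feeders. In the colony assay of the study, cells were plated on gelatin before differentiation and re-seeded onto CF1 feeders, and whether the cells for RNA-seq were handled in this way is not given in the sources used here.

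Trophoblast is set aside from the embryo proper when the outer cells of the morula become trophectoderm. Cdx2 and Gata3 are expressed there, and Cdx2 is needed to keep the lineage. Elf5, Eomes and Tfap2c then maintain trophoblast stem cells in a mutually reinforcing circuit, while Ascl2 and Hand1 belong to the derivatives, Ascl2 to the ectoplacental cone and spongiotrophoblast and Hand1 to the trophoblast giant cells. Naive mouse pluripotent cells rarely enter this lineage, and DNA methylation of the Elf5 promoter is one known part of that restriction. None of these genes marks trophoblast alone. Gata2 works in blood progenitors, Gata3 in T cells and surface epithelia, Hand1 in heart and extraembryonic mesoderm, Tfap2a in neural crest and surface ectoderm, Tfap2c also in primordial germ cells, Cdx2 also in the posterior embryo and intestine, and Ascl2 in intestinal stem cells.

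The genes lie apart on mm10, according to Gencode M21. Elf5 (chr2:103411688-103450989, plus strand), Gata3 (chr2:9857078-9890034, minus strand) and Tfap2c (chr2:172549593-172558622, plus strand) share chromosome 2. Cdx2 is at chr5:147300805-147307270, Ascl2 at chr7:142966829-142969264, Hand1 at chr11:57828705-57832818 and Tfap2a at chr13:40715302-40738376, all on the minus strand. Gata2 is at chr6:88193891-88207032 on the plus strand. Gata3 overlaps 3 other genes (Gm13256 and 4930412O13Rik on the opposite strand, 9230102O04Rik on its own) and Tfap2a overlaps 3 on the opposite strand (Gm47061, Gm26688 and Gm47067). Overlap was taken over whole gene spans, not exons, and whether the counting used strand is not given in the sources used here. How far reads of these overlapping genes entered the Gata3 and Tfap2a values is therefore unknown. The other 6 genes overlap none.

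Promoter sequence from RefSeq (GRCm38.p6, the mm10 assembly) was given for 6 of the 8 genes, in 9 windows, and not for Hand1 or Tfap2c. The 250 bases before each start were searched on both strands for letters that the families of these factors bind. They were GATAA for GATA factors, GCCNNNGGC for AP-2 (Tfap2) factors, TTTATG for Cdx factors, GGAATG for TEAD factors, CANNTG (the E box) for factors such as Ascl2 and Hand1, ATGCAAAT (the octamer) for Oct4, and TATAAA (the TATA box). The 5 windows below are shown because they hold GATA, AP-2 or Cdx letters, those of the members' own families. Capitals mark these letters and also the octamer and TEAD letters (E boxes are left in lower case), with each sequence running 5′ to 3′ on the strand of its gene up to the base before the start. They are Cdx2 (chr5:147307250-147307499, minus strand), Gata3 (chr2:9878601-9878850, minus strand), the second of 2 Gata2 starts (chr6:88198414-88198663, plus strand), the second of 2 Elf5 starts (chr2:103423818-103424067, plus strand) and the first of 2 Tfap2a starts (chr13:40734921-40735170, minus strand).
Cdx2: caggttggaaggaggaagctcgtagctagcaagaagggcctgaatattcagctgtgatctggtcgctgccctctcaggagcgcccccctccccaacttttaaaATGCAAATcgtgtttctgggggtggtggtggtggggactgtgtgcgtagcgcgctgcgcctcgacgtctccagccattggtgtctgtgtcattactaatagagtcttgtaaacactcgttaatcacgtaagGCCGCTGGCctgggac
Gata3: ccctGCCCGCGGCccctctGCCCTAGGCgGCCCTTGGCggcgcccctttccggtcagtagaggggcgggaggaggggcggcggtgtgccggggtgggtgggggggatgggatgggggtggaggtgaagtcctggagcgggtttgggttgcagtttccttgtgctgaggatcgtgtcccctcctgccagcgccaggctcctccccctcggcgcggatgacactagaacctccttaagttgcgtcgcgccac
Gata2: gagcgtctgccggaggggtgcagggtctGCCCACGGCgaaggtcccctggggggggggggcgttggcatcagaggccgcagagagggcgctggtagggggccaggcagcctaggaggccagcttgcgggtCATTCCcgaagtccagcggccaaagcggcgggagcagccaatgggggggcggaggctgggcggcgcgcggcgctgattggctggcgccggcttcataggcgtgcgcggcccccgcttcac
Elf5: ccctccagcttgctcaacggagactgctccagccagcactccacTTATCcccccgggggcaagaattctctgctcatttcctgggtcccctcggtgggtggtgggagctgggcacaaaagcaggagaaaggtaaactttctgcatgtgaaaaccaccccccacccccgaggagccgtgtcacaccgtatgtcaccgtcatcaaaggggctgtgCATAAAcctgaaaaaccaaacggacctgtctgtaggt
Tfap2a: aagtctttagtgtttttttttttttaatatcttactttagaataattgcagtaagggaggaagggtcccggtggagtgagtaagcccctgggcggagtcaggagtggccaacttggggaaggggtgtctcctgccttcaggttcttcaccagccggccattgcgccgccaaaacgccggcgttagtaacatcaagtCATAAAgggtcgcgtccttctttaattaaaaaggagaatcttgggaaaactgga

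The Cdx2 window held the octamer at positions -147 to -140 from the start and an AP-2 match at -16 to -8. Of all 32851 mouse windows of this length, 1.60% held the octamer and 13.7% the AP-2 letters. The Gata3 window held 3 AP-2 matches between positions -246 and -213, the Gata2 window an AP-2 and a TEAD match, the Elf5 window a GATA and a Cdx match and the Tfap2a window a Cdx match. Of the windows not shown, the first Elf5 window held a TEAD match. Over the 9 windows, AP-2 letters were in 3, Cdx letters in 2 (10.8% of all windows), TEAD letters in 2 (12.6%), GATA letters in 1 (22.6%), the E box in 4 (66.2%) and TATAAA in 0 (12.4%). These are matches of letters in short windows and describe no binding. The windows were also mostly rich in G and C, from 47.6% in the first of 2 Tfap2a windows to 74.0% in the second Gata2 window, against a median of 52.4% over all windows.

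The deposited table holds 1 FPKM value (sequenced fragments scaled to transcript length and to library size) per gene and condition, in which the authors combined the 2 samples. No value therefore has a spread, no difference could be tested, and a gene is called higher or lower here when its ratio was at least 2 and its higher value at least 1 FPKM. Summed over all genes, a condition held 603278 to 832607 FPKM, and 2756 to 5090 genes were listed at 0. Steps between the low values of long genes place a single fragment in a transcript of about 2 kb at between 0.00945 and 0.0330 FPKM, depending on the condition. By that rough scale the 9 member values above 0 and under 0.1 FPKM stand for about 1 to 11 fragments each. FPKM of the OSKM genes do not separate transgene from endogenous transcripts, and the +dox to –dox ratio ran from 1.18 to 3.78 for Pou5f1 (Oct4), 0.543 to 2.02 for Sox2, 0.787 to 3.12 for Klf4 and 0.506 to 0.762 for Myc, so these values do not check the dox labels.

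The highest values of the members were gathered in 1 condition, outside the time course. Cells differentiated for 96 h and returned to serum/LIF without dox (96 h –dox) held the highest value of 7 of the 8 genes. Tfap2a, which was highest at 0 h, was the exception. Of the 14853 genes that reached 1 FPKM anywhere, 17.3% had their highest value in 96 h –dox, the largest share of any condition. The values of the 8 genes summed to 232.0 FPKM there, 10.9 times the 21.2 FPKM of the 96 h timepoint and 5.20 times the 44.6 FPKM of 96 h +dox. Of the 120 member values, 67 reached 1 FPKM, 16 reached 10 FPKM and 6 were listed at 0. All 8 genes reached 1 FPKM in 96 h –dox, 7 in 96 h +dox and 2 at the 36, 48 and 60 h timepoints. In bulk RNA, more cells of a type and more RNA per cell cannot be told apart.

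**Figure D1:**
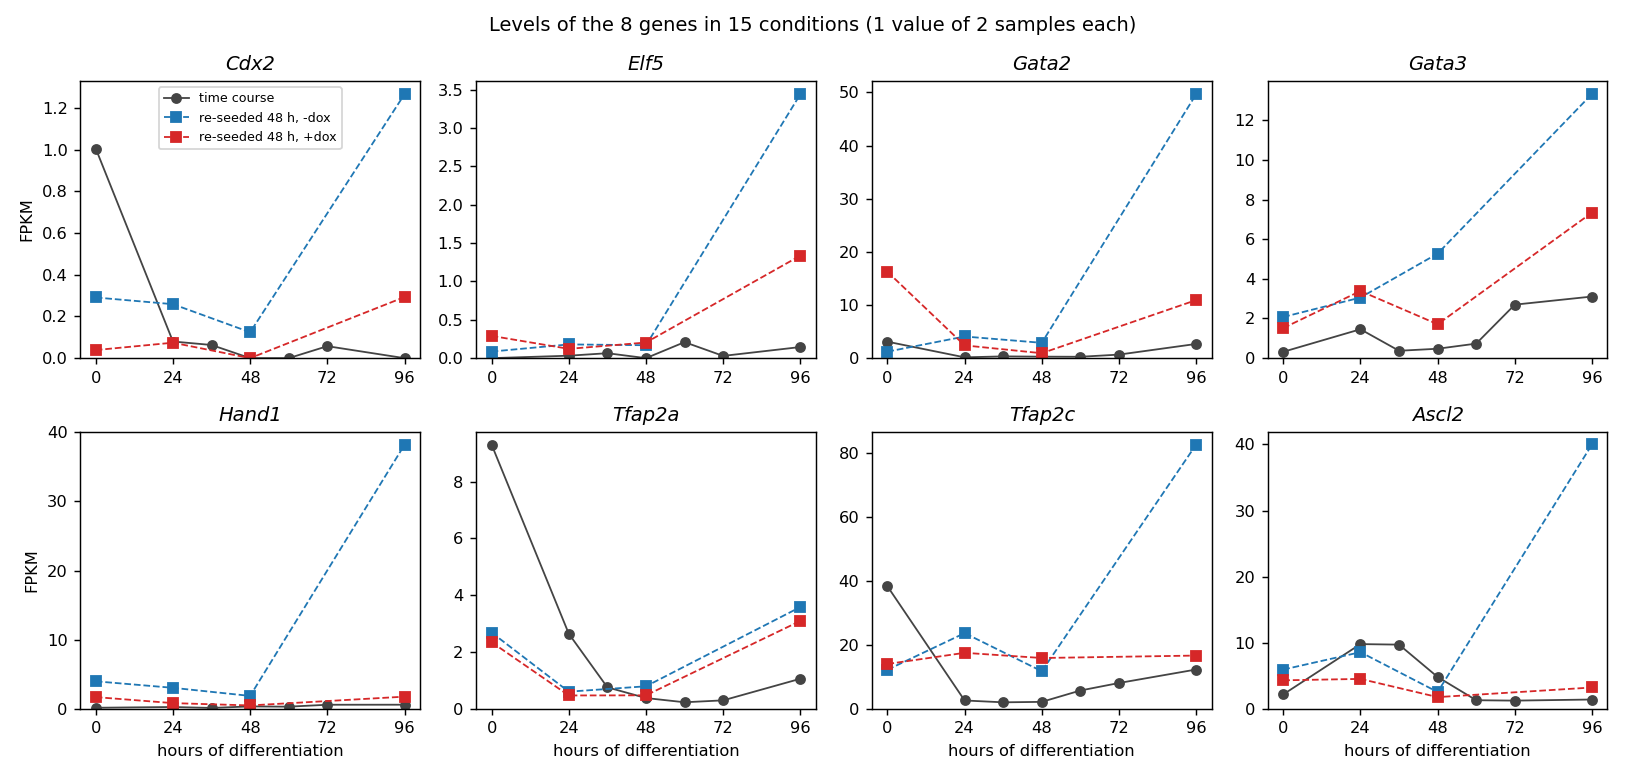
FPKM of each gene (y axis from 0, own scale per gene) against hours of differentiation (x axis), for the time course (grey circles) and for cells re-seeded for 48 h in serum/LIF without dox (blue squares) or with dox (red squares); each point is 1 combined value of 2 samples, without error bars, and lines only join points. The 96 h –dox point is the highest of 7 genes, from 1.27 FPKM for Cdx2 to 82.5 FPKM for Tfap2c, and Tfap2a is highest at 0 h with 9.30 FPKM.

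Cdx2, the trophectoderm factor, was barely expressed. Its values at the 7 timepoints, in order from 0 to 96 h, were 1.01, 0.0799, 0.0632, 0, 0, 0.0575 and 0 FPKM. In re-seeded cells it stood at 0.291, 0.259, 0.124 and 1.27 FPKM without dox and at 0.0388, 0.0742, 0 and 0.293 FPKM with dox, for 0, 24, 48 and 96 h of prior differentiation. It reached 1 FPKM at 0 h and in 96 h –dox only, and every call of Cdx2 below rests on these 2 values just above the minimum. They differed 1.26-fold, and without a spread their order is not established. Cdx1, a relative that Wnt signaling induces, was highest at 0 h (9.16 FPKM).

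Elf5, the factor tied to commitment to trophoblast, lay under 0.3 FPKM in 13 conditions. Along the time course it was listed at 0 at 0 and 48 h and lay between 0.0293 FPKM (72 h) and 0.209 FPKM (60 h) otherwise. After re-seeding (in the same order of prior differentiation) it was 0.0859, 0.179, 0.169 and 3.44 FPKM without dox and 0.290, 0.121, 0.204 and 1.34 FPKM with dox. The 2 values above 1 FPKM thus both came from cells differentiated for 96 h and returned to serum/LIF, and the –dox value was 2.57 times the +dox value.

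Tfap2c, the AP-2γ factor of trophoblast stem cells and germ cells, was the member of highest FPKM in 11 of the 15 conditions and was at least 2.02 FPKM in all of them. At the 7 timepoints it was 38.3, 2.60, 2.02, 2.16, 5.71, 8.05 and 12.3 FPKM. The course was thus a trough with its floor at 24 to 48 h. The re-seeded cells had 12.2, 23.6, 11.7 and 82.5 FPKM without dox and 13.98, 17.5, 15.9 and 16.6 FPKM with dox. The +dox values spanned little, and the 96 h –dox value was 2.16 times the next highest, that of 0 h.

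Tfap2a, the AP-2α factor of neural crest, surface ectoderm and trophectoderm, had its floor later than Tfap2c, at 60 h. Its 7 values from 0 to 96 h were 9.30, 2.64, 0.755, 0.379, 0.229, 0.297 and 1.06 FPKM. After re-seeding they were 2.68, 0.602, 0.792 and 3.58 FPKM without dox and 2.34, 0.469, 0.474 and 3.09 FPKM with dox. It was the member whose –dox and +dox values lay closest, with ratios of +dox to –dox between 0.599 and 0.873.

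Gata2, the other GATA factor of trophoblast, passed 10 FPKM in 3 conditions. The time course read 3.10, 0.151, 0.333, 0.280, 0.259, 0.668 and 2.67 FPKM, again a trough. After return to serum/LIF it was 1.22, 4.07, 2.88 and 49.7 FPKM without dox and 16.3, 2.40, 0.929 and 10.9 FPKM with dox. Its order was therefore 96 h –dox, then undifferentiated cells given dox (0 h +dox), then 96 h +dox, and the other 12 conditions lay at 4.07 FPKM or below.

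Gata3, which acts beside Cdx2 in trophectoderm, had the steadiest climb in re-seeded cells. The time course read 0.319, 1.46, 0.372, 0.474, 0.733, 2.70 and 3.11 FPKM. Re-seeded cells without dox had 2.08, 3.06, 5.27 and 13.3 FPKM, higher with each longer differentiation. With dox it was 1.52, 3.39, 1.71 and 7.34 FPKM. Its 96 h –dox value was 1.82 times the next highest, 96 h +dox.

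Hand1, the basic helix-loop-helix factor of giant cells, stayed under 0.6 FPKM through the whole time course, with 0.148, 0.259, 0.123, 0.344, 0.307, 0.584 and 0.590 FPKM in order. The re-seeded values were 3.98, 3.04, 1.86 and 38.2 FPKM without dox and 1.69, 0.821, 0.485 and 1.76 FPKM with dox. It was the member most concentrated in 1 condition, since the 96 h –dox value was 9.61 times the next highest, 0 h –dox. It was also higher without dox than with dox at each of the 4 times.

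Ascl2, the helix-loop-helix factor of the ectoplacental cone, had its time-course maximum at 24 h, close to its 36 h value. The 7 values were 2.18, 9.79, 9.71, 4.81, 1.30, 1.24 and 1.40 FPKM. Those of re-seeded cells were 5.94, 8.57, 2.54 and 40.0 FPKM without dox and 4.31, 4.52, 1.77 and 3.22 FPKM with dox. The early peak and the 96 h –dox value differed 4.09-fold.

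The first comparison asks how the genes moved as pluripotency was left behind, with each timepoint set against 0 h, so the 6 comparisons share the 0 h samples. Cdx2, Gata2, Tfap2a and Tfap2c were lower at each of 24, 36, 48, 60 and 72 h, and Cdx2, Tfap2a and Tfap2c still at 96 h. Tfap2c was 14.7-fold lower at 24 h and 3.12-fold lower at 96 h, and Tfap2a was 40.5-fold lower at 60 h and 8.80-fold lower at 96 h. Gata2 was 20.5-fold lower at 24 h, while at 96 h (2.67 FPKM) its ratio to 0 h was 0.863. Ascl2 went the other way and was higher at 24 h (4.50-fold), 36 h (4.46-fold) and 48 h (2.21-fold), and Gata3 was higher at 24 h (4.56-fold), 72 h (8.45-fold) and 96 h (9.73-fold). Elf5 and Hand1 never reached 1 FPKM in either value of these comparisons. The 6 lower calls of Cdx2 rest on 1.01 FPKM at 0 h and end when the values are scaled by median-ratio factors, which brings it just under 1 FPKM.

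At 24 h, 2 members were higher and 4 lower, where 8.64% and 14.3% of the 12884 genes tested were. The 36 h comparison gave 1 higher and 4 lower (11.3% and 16.8% of all genes), that of 48 h 1 and 4 (12.1% and 17.0%) and that of 60 h 0 and 4 (13.0% and 16.1%). The 72 h comparison gave 1 and 4 (15.0% and 15.9%) and the last 1 and 3 (16.8% and 16.4%). The share of members that were lower was thus above the background at each time, and the share higher lay on both sides of it. The median log2 ratio, with 0.1 FPKM added to each value, was -2.20 at 24 h over the 6 members that reached 1 FPKM and -1.12 at 96 h over 6, against -0.01 and -0.02 over all genes. Most fibroblast markers moved with the 0 h value. Of the 12 listed, 10 were lower than at 0 h at each later time. Thy1 went the other way and was called higher at 24, 36, 48 and 72 h (4.01 FPKM at 0 h, 17.7 at 48 h). All 12 listed markers were found, they summed to 828.5 FPKM at 0 h and to between 22.9 and 78.4 FPKM at the other timepoints, none of the 12 was at 0 at 0 h, and Col1a1 and Col3a1 stood at 228.7 and 200.8 FPKM. Their part in the 0 h levels of Tfap2c, Tfap2a, Gata2 and Cdx2 was not tested. With 24 h in place of 0 h as the reference, the members gave 5 higher and 11 lower calls over 36 to 96 h, against 4 and 19 with 0 h. Tfap2a was called lower at all 5 times. Tfap2c then changed direction and was called higher after 60, 72 and 96 h (4.72-fold at the last), as was Gata2 after 96 h (17.7-fold).

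The second comparison asks what return to serum/LIF without OSKM did, with each –dox condition set against the timepoint it was seeded from. These conditions differ in medium and in 48 h of culture. Returning cells after 96 h of differentiation gave values at least 2-fold above the 96 h timepoint for all 8 members, where 12.4% of the 13022 genes tested were higher and 11.2% lower. Hand1 was 64.7-fold higher, and 12 of all genes tested, Hand1 included, had a ratio at least as large on the scale with 0.1 FPKM added. Ascl2 was 28.5-fold higher, Elf5 23.7-fold, Gata2 18.6-fold, Tfap2c 6.73-fold, Gata3 4.29-fold and Tfap2a 3.39-fold. Cdx2 was listed at 0 at the 96 h timepoint, so no fold is given for its 1.27 FPKM. The median log2 ratio of the 8 members with 0.1 FPKM added was 3.81, against 0.01 over all genes tested. Cdx2 (0 FPKM), Elf5 (0.145) and Hand1 (0.590) were under 1 FPKM at the 96 h timepoint. They passed the minimum only through 96 h –dox, which by construction favors a large ratio. The members were also chosen with earlier results of these data known, so the count and the median are a description.

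**Figure D2:**
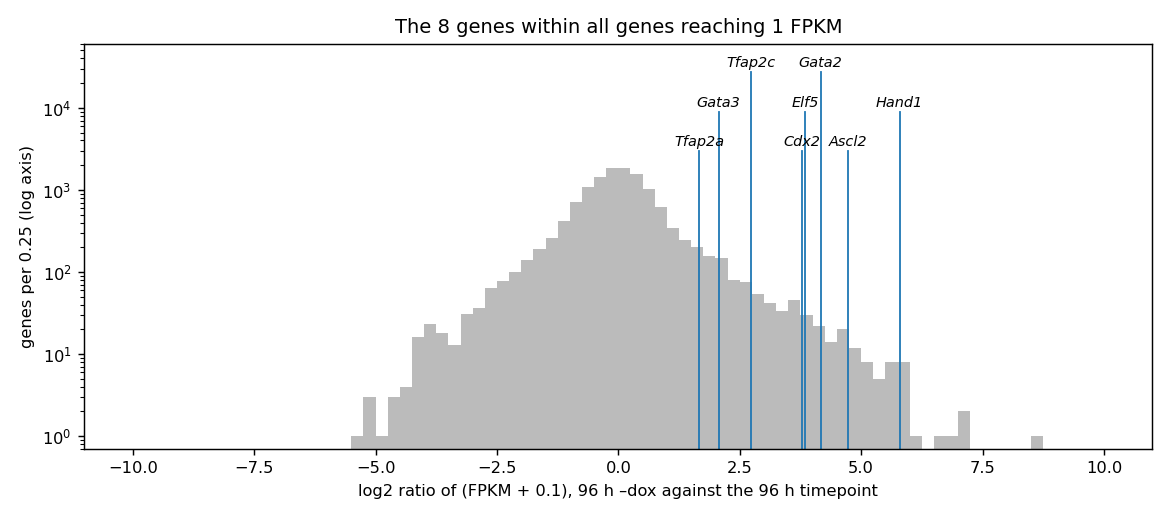
Number of genes (y axis, log scale) by log2 ratio of FPKM + 0.1 in 96 h –dox to the 96 h timepoint (x axis, bins of 0.25), for all 13022 genes that reached 1 FPKM in either; blue lines mark the 8 genes, and their heights only separate the names. All 8 lie to the right of 1, from Tfap2a (1.66) to Hand1 (5.79), while the median of all genes is 0.01.

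After shorter differentiation the members split. From 0 h, 3 were higher in serum/LIF than in 2i/LIF (12.0% of all genes) and 4 lower (10.1%). Hand1 was 26.8-fold higher (0.148 against 3.98 FPKM), Gata3 6.50-fold and Ascl2 2.73-fold, while Tfap2a was 3.47-fold lower, Cdx2 3.46-fold, Tfap2c 3.14-fold and Gata2 2.53-fold. The call of Cdx2 again ends under median-ratio scaling. In the same comparison 10 of the 12 fibroblast markers were lower and 0 higher, and their sum was 8.03 against 828.5 FPKM, with 2 of them at 0 in 0 h –dox. Their part in the 4 lower values was not tested. From 24 h, 4 were higher (14.9%) and 1, Tfap2a, was lower (10.6%), while 8 of the fibroblast markers were lower. Gata2 was 26.9-fold higher there, Hand1 11.7-fold, Tfap2c 9.09-fold and Gata3 2.10-fold. From 48 h, the same 4 genes were higher (15.3%) and 0 were lower (11.5%), with Gata3 11.1-fold, Gata2 10.3-fold, Tfap2c 5.43-fold and Hand1 5.42-fold higher. Hand1 and Gata3 were thus higher after return to serum/LIF at all 4 times.

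**Figure D3:**
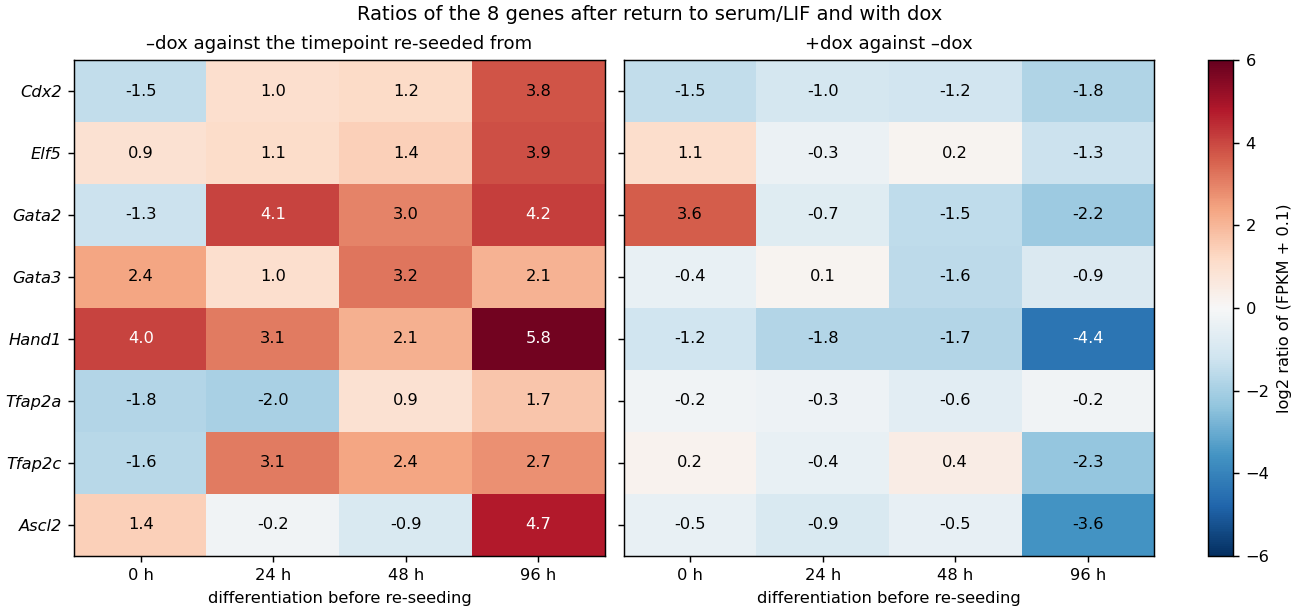
Log2 ratio of FPKM + 0.1 (color, and number in each cell) for the 8 genes (rows) by hours of differentiation before re-seeding (columns), for –dox against the timepoint re-seeded from (left) and +dox against –dox (right); each cell compares 2 combined values, and cells of Cdx2 and Elf5 before 96 h rest on values at or under about 1 FPKM. At 96 h every cell is above 0 on the left, up to 5.79 for Hand1, and below 0 on the right, down to -4.37 for Hand1.

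The third comparison, +dox against –dox, is the one designed to read the effect of OSKM. After 96 h of differentiation 6 of the 8 members were lower with dox (11.1% of 12688 genes were lower, 6.67% higher) and 0 were higher. Hand1 was 21.7-fold lower (1.76 against 38.2 FPKM), Ascl2 12.4-fold, Tfap2c 4.96-fold, Gata2 4.55-fold, Cdx2 4.32-fold and Elf5 2.57-fold. Gata3 and Tfap2a missed the 2-fold limit, at 1.82-fold and 1.16-fold lower. Without the 2-fold limit or the minimum, the 96 h +dox values lay above those of the 96 h timepoint for all 8 genes. The ratio was 1.35-fold for Tfap2c, 2.98-fold for Hand1 and 4.09-fold for Gata2, and Cdx2 was 0.293 against 0 FPKM. The share of all genes above that timepoint was not computed, so this count has no background. For the 8 members the median log2 ratio of +dox to –dox, with 0.1 FPKM added, was -1.99, and over all genes it was -0.01. Fibroblast markers were lower with dox as well. Of the 12, 9 were lower and 1, Dcn, higher, none was at 0, the sum was 27.0 against 162.5 FPKM, and the median log2 ratio over the 10 that reached 1 FPKM was -2.93. Their part in the lower member values was not tested.

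At the earlier times fewer members passed the 2-fold limit. After 48 h, Hand1 (3.84-fold), Gata2 (3.10-fold) and Gata3 (3.08-fold) were lower with dox, so 3 were lower (6.46% of all genes) and 0 higher (6.56%), and 5 of the fibroblast markers were lower and 1 higher. After 24 h only Hand1 was lower, 3.70-fold (3.40% lower and 2.87% higher among all genes). In cells re-seeded without differentiation Hand1 was lower by 2.35-fold (5.61% of all genes were lower), and Gata2 was the 1 member called higher with dox in the 4 comparisons. It stood at 16.3 FPKM with dox and 1.22 without, a 13.3-fold ratio, where 3.62% of 12751 genes were higher and 7, Gata2 included, had a ratio at least as large with 0.1 FPKM added. Rhox6, a homeobox gene of placenta and germ cells, was the 1 trophoblast differentiation marker called higher in the same comparison, and 0 of the 20 other trophoblast regulators were. Hand1 was thus lower with dox at all 4 times, and Gata2 lay on different sides at 0 h and at 96 h.

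The fourth comparison sets re-seeded cells differentiated for longer against those re-seeded from 0 h, which the comparisons of an arm share. Without dox, 1 member was higher and 1 lower from 24 h (8.72% and 11.4% of all genes), 2 were higher and 3 lower from 48 h (15.1% and 17.4%), and 7 were higher and 0 lower from 96 h (21.5% and 21.7%). From 96 h the ratios were 40.6-fold for Gata2, 40.1-fold for Elf5, 9.61-fold for Hand1, 6.77-fold for Tfap2c, 6.74-fold for Ascl2, 6.42-fold for Gata3 and 4.35-fold for Cdx2, and 1.33-fold for Tfap2a. Fibroblast markers moved too, with 9 of 12 higher, 1 lower and a sum of 162.5 against 8.03 FPKM. The step lay between 48 and 96 h for most of them, since at 48 h Hand1, Tfap2a and Ascl2 were lower than at 0 h and Tfap2c stood at 0.962 times its 0 h value. With dox, 1 was higher and 3 lower from 24 h (8.97% and 9.78%), 0 and 4 from 48 h (11.8% and 13.4%), and 2 and 0 from 96 h (16.6% and 19.2%). The 2 were Gata3 (4.84-fold) and Elf5 (4.60-fold). Hand1 and Tfap2c with dox were at 1.04 and 1.19 times their 0 h values.

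Other genes of the lineage were read from lists written from general knowledge of trophoblast, but with earlier results of these data known. Their counts are therefore a description and no independent support. Of 20 other trophoblast regulators, all found, 12 were higher (12.4% of all genes) and 0 lower (11.2%) in 96 h –dox than at the 96 h timepoint, with a median log2 ratio of 1.44 over the 19 that reached 1 FPKM. Id2, an inhibitor of helix-loop-helix factors, was 164.0 FPKM against 39.0, and Klf5 was 32.2 against 11.0. Yap1, the Hippo effector, was 65.6 against 51.7, and Esrrb, shared by trophoblast stem cells and naive pluripotent cells, was 1.98 against 3.07. Pparg and Dlx3, needed for the placental labyrinth and chosen after their values were seen, stood at 22.8 against 0.272 FPKM and at 29.4 against 2.17. Eomes, which with Cdx2 and Elf5 defines trophoblast stem cells, was 0.236 FPKM in 96 h –dox and highest among the 3 conditions at the 96 h timepoint, with 0.515 FPKM. Elf5 and Eomes reached 1 FPKM together in 0 of the 15 conditions.

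Of 21 trophoblast differentiation markers, 20 were found, 14 were higher and 0 lower in 96 h –dox than at the 96 h timepoint, and the other 6 stayed under 1 FPKM in both. The median log2 ratio of the 14 was 3.04, and 12.4% of all genes were higher. The simple-epithelium keratins Krt18 (2071 against 670.3 FPKM), Krt8 (1227 against 272.1) and Krt19 (513.4 against 69.4) and the placental imprinted gene Peg10 (1855 against 241.9) were the most abundant. Plac1, Rhox6 and Rhox9, named here after their values were seen, were at 103.2, 378.9 and 260.1 FPKM, against 2.84, 14.1 and 8.24 FPKM at 96 h. Markers of mature placental cells were low. Tpbpa of spongiotrophoblast was 1.12 FPKM, Prl3d1 of giant cells 0.617 FPKM, Syna of syncytiotrophoblast 3.34 FPKM and Synb was listed at 0. In 96 h +dox 14 of the markers were lower than without dox (11.1% of all genes) and 0 higher, and the median log2 ratio was -1.96.

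**Figure D4:**
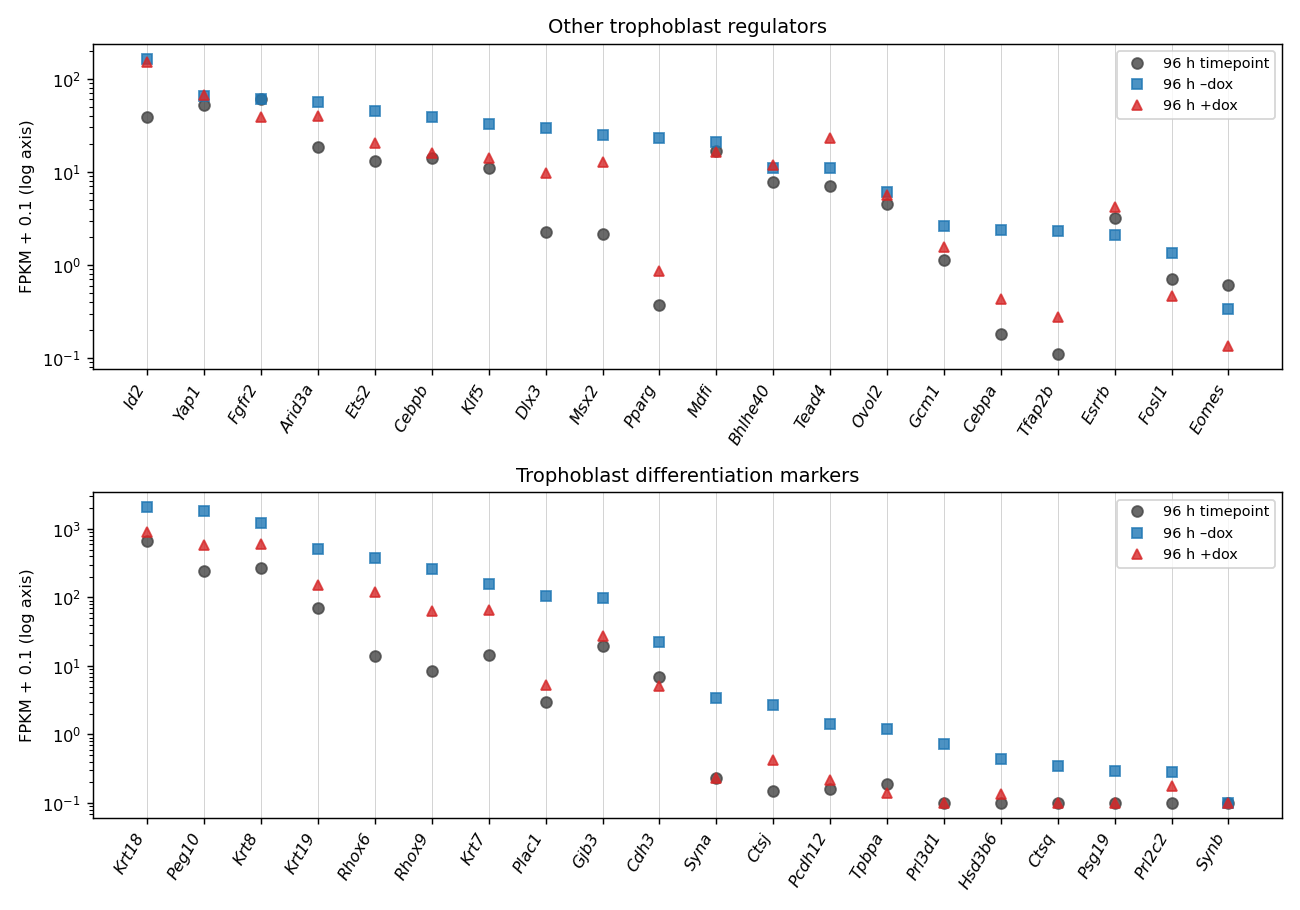
FPKM + 0.1 (y axis, log scale) of the 20 other trophoblast regulators (top) and the 20 trophoblast differentiation markers found (bottom), ordered along the x axis by 96 h –dox, at the 96 h timepoint (grey circles), in 96 h –dox (blue squares) and in 96 h +dox (red triangles); each point is 1 combined value. The –dox square is the highest of the 3 for most markers, Krt18 at 2071 FPKM and Plac1 at 103.2 FPKM among them, and exceptions include Tead4 and Esrrb.

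Relatives of the members were mostly low. Of 13 family members 5 reached 1 FPKM in this comparison. Of these 5, 4 (Cdx1, Elf3, Gata6 and Tfap2b) were higher in 96 h –dox (12.4% of all genes) and 0 lower (11.2%). Tfap2b is also on the list of other trophoblast regulators and was already counted as higher there. Cdx1 and Tfap2b were under 1 FPKM at the 96 h timepoint, so they passed the minimum only through 96 h –dox. Elf3, an epithelial ETS factor related to Elf5, was 65.5 FPKM there and 16.3 FPKM at 96 h, and it was nearly as high at 0 h (61.7 FPKM). Gata6, of primitive endoderm and heart, was 3.37 against 1.10 FPKM, and Gata4, of the same tissues, was 2.09 against 2.35 FPKM.

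Markers of other cells moved with the 96 h –dox condition as well, and their counts are set against the same 12.4% of all genes higher and 11.2% lower. Of the 12 fibroblast markers 9 were higher than at the 96 h timepoint and 2 lower, and none was at 0. Their sum was 162.5 against 32.9 FPKM, with Col1a2 at 86.0 and Col1a1 at 33.2 FPKM. The 2 lower were Thy1 (0.222 against 3.96 FPKM) and Dcn (0.791 against 1.76), and Lum was 0.0605 FPKM. Dcn and Lum had been 71.0 and 14.8 FPKM at 0 h, so the markers differed between the 0 h and 96 h –dox conditions. Of 12 surface ectoderm and neural crest genes 9 reached 1 FPKM in this comparison. Of these, 4 (Krt14, Trp63, Dlx5 and Pax3) were higher and 0 lower. The sum of the list was 39.0 against 21.3 FPKM, and none was at 0. Msx1 (6.66 FPKM), Sox9 (3.98), Pax3 (3.42), Snai2 (3.14), Dlx5 (1.92) and Trp63 (1.73) had their highest value of the 15 conditions there, while Krt5 and Sox10 stood at 0.0287 and 0.0227 FPKM and Sox10 did not pass 0.252 FPKM in any condition. With dox 4 of the list (Trp63, Dlx5, Msx1 and Sox9) were lower and 1, Krt14, higher. Grhl2, of surface epithelia, was 14.01 FPKM in 96 h –dox against 9.77 at the 96 h timepoint, and Grhl3 was 2.35 against 1.95. Foxd3, the gene of this list with the highest value in any condition (24.8 FPKM at 36 h), was 0.107 against 0.303. Of 10 extraembryonic mesoderm and amnion genes only 2 reached 1 FPKM in this comparison, Bmp4 (19.3 against 3.68 FPKM) and Wnt6 (15.8 against 2.92). These 2 were higher and 0 lower, the sum was 38.5 against 7.55 FPKM, and Tal1 was at 0. Pitx1 was 0.909 against 0.119 FPKM and Tbx4 0.0618 against 0.145. Of 9 BMP-responsive genes 7 were higher and 0 lower, the sum was 826.5 against 259.8 FPKM, and Id3 and Id1 were 320.9 and 275.0 FPKM. With dox the BMP list summed to 564.6 FPKM, and 3 of it, Id3 (99.5 FPKM), Bambi (4.36 against 10.2) and Msx1 (1.05 against 6.66), were lower and 1, Id4, higher (11.1% and 6.67% of all genes). Id1 was 273.4 FPKM with dox. The part of fibroblasts, of the other cell types and of BMP signaling in the member values was not tested.

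How far the members moved together was described by Pearson's r of log2(FPKM + 1) over the 15 conditions, which share a cell line and include both arms and the time course. Over the 28 pairs r ran from 0.102 (Gata3 with Tfap2a) to 0.831 (Elf5 with Hand1), with a median of 0.613. Without 96 h –dox, over 14 conditions, the range was -0.339 (Tfap2c with Ascl2) to 0.809 (Cdx2 with Tfap2a), the median was 0.287 and 6 pairs were below 0. Much of the likeness among the 8 therefore lay in that 1 condition.

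The 2 genes most like each member were sought among the 11152 genes that reached 5 FPKM, by the same r. They were Rhox6 (0.939) and Rhox9 (0.925) for Gata2, Krt19 (0.932) and Ebf4 (0.928) for Gata3, Hamp (0.979) and Vtcn1 (0.978) for Elf5, and Rasgrp1 (0.933) and Lcp1 (0.930) for Cdx2. For Hand1 they were Lacc1 (0.946) and Ccdc184 (0.938), for Tfap2a Serpinb1a (0.939) and Smarcd3 (0.928), for Tfap2c Tcn2 (0.958) and Agfg1 (0.920), and for Ascl2 Bcor (0.911) and Sgk2 (0.892). Of these 16 genes, 12 were highest in 96 h –dox, where 17.3% of the genes that reached 1 FPKM were. They were picked for likeness to members that were mostly highest there, so this count follows from the choice. The choice depended on the measure, since 7 of the 16 were again among the nearest 2 with 0.1 in place of 1 FPKM added and 2 with Spearman's rho. Rhox6 and Rhox9 kept r of 0.890 and 0.859 with Gata2 without 96 h –dox, over 14 conditions.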

How the data were processed

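Polyadenylated RNA of 30 samples in 15 conditions was sequenced on an Illumina instrument. According to the methods, the authors mapped reads to mm10 with TopHat 2.0.14, quantified Gencode M4 transcripts with Cufflinks 2.2.1 (Cuffquant) and combined the 2 samples of a condition with Cuffdiff, and the deposited values are FPKM. The library normalization and the strand setting are not given in the sources used here. The table also holds the authors' own response calls, which were not used. It gives no counts or replicate values, so the depth is unknown beyond the rough steps between low values (1380 single-transcript genes of at least 2500 bp, 200 bp taken off each length), and no test was run.

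For a call, the plain ratio had to be 2 or more and the higher of both values 1 FPKM or more. Medians used 0.1 FPKM added, and likeness used log2(FPKM + 1). By rule, the genes to be named were the 8 members, the 4 genes of highest value in each of 10 lists and the 2 genes most like each member. Not all of these list genes are given, and further list genes were named after their values were seen. The members and lists were chosen with earlier results of these data known. Lists share some genes, and 2 listed genes are not reported here. Gencode M21 held 94.9% of the symbols. Python 3.11.15, numpy 2.4.6, pandas 2.3.3 and matplotlib 3.10.9 were used, and the calls were tested on simulated data. Alternatives covered the minimum, the fold, the added value, the scaling and the reference timepoint.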

Additional observations from a re-analysis of the deposited data

How the results depend on the processing

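No paired analysis was possible because the table gives 1 combined value per condition, and for the same reason no replicate could be left out in turn. Of the recomputed member counts, 85 stayed within 1.5 times and 14 did not, 7 of these with at least 1 FPKM required in both values. Without a minimum, the time course against 0 h gave 16 higher calls in place of 6, and dox gave 2 in place of 1. With at least 1 FPKM in both values, the time course gave 3 higher and 8 lower (6 and 23), dox 7 lower (11), return to serum/LIF 9 higher and 3 lower (19 and 5), with 5 of the 8 higher after 96 h, and longer differentiation of re-seeded cells 4 lower (11). With 1 FPKM added, dox gave 7 lower calls, return 3 lower and longer differentiation 6 lower. A fold of 3 gave 7 lower for longer differentiation. With 24 h as the reference, chosen after seeing the data, the time course over 36 to 96 h gave 11 lower calls in place of 19. Requiring both values to reach 1 FPKM removes genes that were near 0 in one condition by its own construction, and the cause of the other shifts was not tested.

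Scaling by median-ratio factors, between 0.990 and 1.03, left 7 members highest in 96 h –dox and moved 0 of 85 called member ratios by over 1.5-fold, but Cdx2 at 0 h then fell under 1 FPKM, so the time course gave 17 lower calls in place of 23 and return 4 in place of 5. A minimum of 2 FPKM gave 17 and 4 as well. Adding 1 FPKM moved 45 of the 85 ratios by over 1.5-fold. Low values limit Cdx2 and Elf5 most, since most of theirs stand for a few fragments.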

Other observations

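Most listed germline genes were lower in 96 h –dox, the highest condition of Tfap2c, than at 0 h, its second highest. The share of all genes higher or lower between these conditions was not computed. Among posterior genes that reached 1 FPKM in either of these conditions, T, Sp5 and Eomes were higher at 0 h and Fgf8 in 96 h –dox. Cdx2 reached 1 FPKM in these conditions alone. Tfap2c is also a germ cell factor, and at 0 h, where it was 38.3 FPKM, Dppa3 stood at 168.1, Kit at 56.7, Dazl at 39.2 and Prdm14 at 18.8 FPKM. In 96 h –dox, where Tfap2c was 82.5 FPKM, the same genes were at 1.17, 2.62, 0.310 and 0.0963 FPKM. Prdm14 is listed among the naive pluripotency genes too. Of the rest of the germline list, Prdm1 (9.18 at 0 h against 2.15 FPKM in 96 h –dox) and Nanos3 (8.04 against 0.654) were also higher at 0 h. Ddx4 was nearly level (1.23 against 1.01), and Dnd1 went the other way (5.53 against 8.40). Of the 8 germline genes, 5 reached 1 FPKM in 96 h –dox or at the 96 h timepoint. Of these 5, 1 was higher (12.4% of all genes tested) and 2 were lower (11.2%) in 96 h –dox. Naive pluripotency genes were also far from their 0 h level there, with Nanog at 2.13 FPKM against 227.1, Zfp42 at 8.54 against 200.8 and Klf2 at 10.6 against 197.0. Among –dox cells all 8 of that list were lower from 96 h than from 0 h, where 21.7% of all genes were. Against the 96 h timepoint, 3 of the list (Klf4, Tbx3 and Tfcp2l1) were higher and 1, Nanog, lower in 96 h –dox. The list summed to 43.9 against 36.2 FPKM.

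The primitive streak genes T, Fgf8 and Wnt3 were highest in 48 h –dox, at 5.90, 8.99 and 3.28 FPKM, a condition in which Cdx2 was 0.124 FPKM, Hand1 1.86 FPKM and Gata3 5.27 FPKM. Sp5, a Wnt target, was highest at 0 h with 26.7 FPKM, as Cdx1 was. Cdx2 reached 1 FPKM at 0 h and in 96 h –dox, where T was 2.85 and 0.185 FPKM and Sp5 26.7 and 4.46 FPKM. Eomes was 3.01 and 0.236 FPKM there. Fgf8 (0.190 and 1.27 FPKM) went the other way, as did Wnt3, which was under 1 FPKM in both (0.112 and 0.414 FPKM). The 12 genes of the list summed to 33.8 FPKM at 0 h and to 8.25 FPKM in 96 h –dox. In 48 h +dox T, Fgf8, Wnt3, Sp5 and Eomes were all lower than without dox (6.46% of all genes). Of the 12 streak and mesoderm genes, 3 reached 1 FPKM in 96 h –dox or at the 96 h timepoint. Of these 3, 0 were higher and 2 lower in 96 h –dox (12.4% and 11.2% of all genes tested).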
